A study of Mus musculus with 6 samples.

Results

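The Sult2a genes encode cytosolic sulfotransferases that are made mainly by hepatocytes. The 5 genes described here, Sult2a1, Sult2a2, Sult2a6, Sult2a7 and Sult2a8, are 5 of the 16623 genes in the table and 5 of the 8 Sult2a genes in it. The other 3, Sult2a3, Sult2a4 and Sult2a5, are given for comparison. The list was drawn up with the mean levels of these genes in hepatocytes already known, which were lower in SIRT7 knockout than in wild-type mice. The genotype difference of the 5 genes is therefore given as a description, without a test. The rule did not use the differences along the lobule or the other genes of the family and pathway, although these lists and tests too were chosen with earlier results of the data known.

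Cells were taken from the livers of 3 wild-type mice (WT) and 3 mice lacking SIRT7 in the whole body (SIRT7 KO). All mice were 5 to 6 months old and fed chow, and the knockout is used as a spontaneous model of nonalcoholic steatohepatitis. Hepatocytes and nonparenchymal cells were isolated by collagenase perfusion and mixed in equal numbers for each mouse before droplet-based single-cell RNA sequencing, in which each RNA molecule is counted by a unique molecular identifier (UMI). Because SIRT7 is absent from every cell type of the knockout, the data do not separate an effect within hepatocytes from an effect of other cells or organs on them.

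A sulfotransferase moves a sulfonate group from the donor PAPS to a hydroxyl group of its substrate, which makes the product more soluble in water and easier to excrete. The SULT2A enzymes act on bile acids and on steroids such as dehydroepiandrosterone. In mice, Sult2a genes are more active in female than in male liver, and the nuclear receptors FXR, PXR and CAR are known regulators of members of the family. Liver lobules are zoned, with pericentral hepatocytes around the central vein and periportal hepatocytes around the portal tract expressing different sets of metabolic genes.

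The Sult2a genes lie next to each other on mouse chromosome 7, between positions 13623967 and 14493023 of GRCm38.p6, a span of 869 kb with 8 genes (RefSeq). In the order of their positions these were Sult2a5, Sult2a2, Sult2a1, Sult2a4, Sult2a3, Sult2a6, Sult2a8 and Sult2a7. Their transcripts resemble each other, and the sequencing reads come from the 3′ end of a transcript. The last coding bases are therefore shown here to compare the genes toward that end. The last 60 coding bases (GENCODE vM21, GRCm38) are written in lower case 5′ to 3′ on the coding strand, they end with the stop codon, and capitals mark the bases that differ from Sult2a1.
Sult2a1, chr7:13796355-13796414, minus strand: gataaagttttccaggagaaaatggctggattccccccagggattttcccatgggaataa
Sult2a2, chr7:13779475-13779534, plus strand: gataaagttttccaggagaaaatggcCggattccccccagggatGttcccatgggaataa
Sult2a6, chr7:14222477-14222536, minus strand: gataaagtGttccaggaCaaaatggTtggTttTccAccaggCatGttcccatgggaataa
Sult2a7, chr7:14465159-14465218, minus strand: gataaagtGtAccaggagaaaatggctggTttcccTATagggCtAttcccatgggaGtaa
Sult2a8, chr7:14411707-14411766, minus strand: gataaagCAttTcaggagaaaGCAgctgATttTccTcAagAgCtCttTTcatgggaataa
Sult2a5, chr7:13670638-13670697, plus strand: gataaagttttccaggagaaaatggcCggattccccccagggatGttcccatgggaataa

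Sult2a8 differed from Sult2a1 at 16 of these 60 bases, Sult2a7 at 9, Sult2a6 at 8 and Sult2a2 at 2, and the stretches of Sult2a2, Sult2a4 and Sult2a5 were the same. That of Sult2a3, like that of Sult2a4 not printed, differed from Sult2a1 at 3. The Sult2a8 gene reaches on to position 14410686, so its stretch lies farther from the 3′ end than those of the other genes. The bases that differ in it therefore need not be those its reads cover. Over the whole coding sequence, Sult2a1 was 89.7% identical to Sult2a6, 73.5% to Sult2a7, 67.5% to Sult2a8 and 66.8% to Sult2a2, where the annotated Sult2a2 coding sequence is shorter, with 585 bases against 858. Of the 50-base stretches in the last 400 bases of each transcript, 66.1% of those of Sult2a2 also occurred in another Sult2a gene. That share was 52.1% for Sult2a5, 36.5% for Sult2a4, 19.1% for Sult2a6, 16.8% for Sult2a1, 4.27% for Sult2a3 and 0% for Sult2a7 and Sult2a8. Reads that map equally well to more than 1 gene are usually left uncounted, so the levels of Sult2a2 are the least certain of the 5 and those of Sult2a7 and Sult2a8 are the least exposed to this.

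The promoter table (RefSeq, GRCm38.p6, 250 bases before to 50 bases after each start) held 5 of the 8 genes, and Sult2a1, Sult2a2 and Sult2a7 were not analysed here. The promoters of 4 genes shared a stretch around the letters GGTCATGAACT, an inverted pair of nuclear receptor half-sites with no bases between them. The motif was read off these promoters and then searched in all, on both strands (reverse complement AGTTCATGACC). It is shown in capitals in 70 bases of each promoter, written on the strand of the gene.
Sult2a6, chr7:14255016-14255085, minus strand: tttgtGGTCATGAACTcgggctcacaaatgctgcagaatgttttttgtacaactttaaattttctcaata
Sult2a5, chr7:13623796-13623865, plus strand: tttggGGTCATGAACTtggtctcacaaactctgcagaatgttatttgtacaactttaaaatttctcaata
Sult2a4, chr7:13989769-13989838, minus strand: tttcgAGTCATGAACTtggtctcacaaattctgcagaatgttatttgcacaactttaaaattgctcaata
Sult2a3, chr7:14123173-14123242, minus strand: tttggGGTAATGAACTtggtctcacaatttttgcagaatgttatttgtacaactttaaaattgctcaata

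Sult2a6 and Sult2a5 held the 11 letters exactly, 210 to 200 and 166 to 156 bases before the start. Counted from 1 at the 5′ end of the motif, Sult2a4 carried G1A and Sult2a3 carried C4A. Of all 32851 promoters of the same length, 7 (0.0213%) held the exact letters. Any 2 of these 4 windows shared 60 to 65 of 70 bases. Neither of the 2 annotated starts of Sult2a8 had a match with up to 1 mismatch within its window.

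The table held 11610 cells. WT mice 1, 2 and 3 gave 1243, 933 and 1094 cells, and SIRT7 KO mice 1, 2 and 3 gave 5609, 2179 and 552. Total UMIs were 3109516, 2511947 and 2731232 in WT and 11069411, 6065832 and 2572107 in SIRT7 KO mice. Of the barcodes, 13 occurred in more than 1 library. Levels are given as CP10K, the UMIs of a gene per 10000 UMIs of a cell, averaged over the cells of a mouse. A UMI counts 1 molecule whatever its length, but levels of different Sult2a genes can be compared only roughly, since the genes differ in how much of their 3′ sequence they share. Intervals and limits from counts cover counting error only.

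Clustering without the Sult2a genes gave 10 clusters, 2 of which carried the hepatocyte markers, with 2994 cells in all. Cluster 1 held 1815 cells with a median of 1246 UMIs and cluster 2 held 1179 cells with a median of 2245 UMIs. The study calls its hepatocyte clusters pericentral and periportal. The summed periportal landmarks were higher in cluster 2 than in cluster 1 in 6 of 6 mice, at 142, 87.2 and 97.8 CP10K in cluster 1 of WT and 56.1, 62.2 and 78.6 in that of SIRT7 KO mice, and at 158, 122 and 114 and 125, 74.8 and 106 in cluster 2. The summed pericentral landmarks were higher in cluster 1 in 5 of 6 mice, all but WT mouse 3. The mean z score of 13 pericentral landmarks was 1.37 in cluster 1 and 1.45 in cluster 2, and that of 14 periportal landmarks was 1.20 and 2.05. Both sets were present in both clusters, which are called by number here.

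The clusters differed in a nuclear RNA. Malat1, a long noncoding RNA kept in the nucleus, ranged from 0.398 to 27.6 CP10K over mice in cluster 1 and from 303 to 538 in cluster 2. Libraries also stood apart in their makeup. Hepatocyte-like cells were 64.4%, 55.0% and 9.14% of the cells of WT mice 1, 2 and 3, and 17.1%, 13.3% and 60.1% of those of SIRT7 KO mice 1, 2 and 3. WT mouse 3 therefore rests on 54 cells of cluster 1 and 46 of cluster 2, SIRT7 KO mouse 2 on 46 cells of cluster 2, and SIRT7 KO mouse 3 on 64 cells of cluster 1. Values without each mouse are given below where they change a statement.

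Sirt7 transcripts followed the genotype labels. In cluster 1 the level of Sirt7 was 0.415, 0.215 and 0.323 CP10K in WT mice 1, 2 and 3, and 0.0122 in SIRT7 KO mouse 1. No Sirt7 UMI was found in cluster 1 of SIRT7 KO mice 2 and 3, which allows up to 0.0771 and 0.190 CP10K. In cluster 2 it was 1.40, 1.26 and 1.63 CP10K in WT and 0.337, 0.417 and 0.188 in SIRT7 KO mice. The knockout mice were thus below every WT mouse in both clusters, and 3′ UMIs remained in them. Xist, which is expressed from the inactive X chromosome, was at 82.8, 46.6 and 110 CP10K in hepatocyte-like cells of WT and at 83.5, 32.1 and 165 in those of SIRT7 KO mice, so it was present in all 6 mice. The Y-linked genes Ddx3y, Eif2s3y, Kdm5d and Uty were not analysed here.

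Sult2a1 had the most UMIs of the members, and it was lower in every SIRT7 KO mouse than in every WT mouse in both hepatocyte-like clusters. Sult2a8 showed the same separation, and Sult2a7 showed it in cluster 1. In cluster 2 the separation of Sult2a1 was lost once the level in other cells was subtracted, and this subtraction is given for Sult2a1 only. Sult2a6 was separated in cluster 1 only, by a narrow margin and not with summed UMIs, and the Sult2a2 values overlapped in both clusters. All 5 means were lower in SIRT7 KO mice in both clusters.

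**Figure D1:**
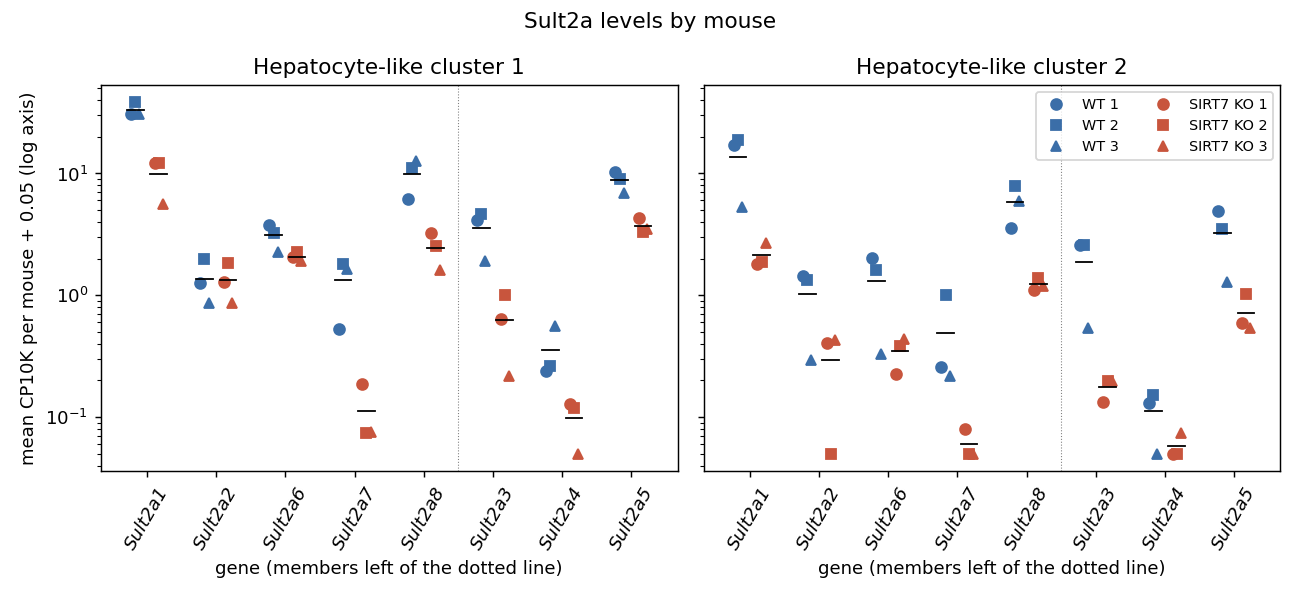
Level of each Sult2a gene by mouse in hepatocyte-like clusters 1 and 2, as mean CP10K + 0.05 on a log axis, with WT in blue, SIRT7 KO in red, a symbol for each mouse number and a black line at the group mean. Sult2a1 and Sult2a8 lie lower in the 3 SIRT7 KO mice than in the 3 WT mice in both panels and Sult2a7 in cluster 1, while Sult2a2 overlaps in cluster 1.

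Sult2a1 encodes the family's best known hydroxysteroid and bile acid sulfotransferase. In cluster 1 its level was 30.7, 38.2 and 31.0 CP10K in WT mice 1, 2 and 3, and 12.1, 12.1 and 5.55 in SIRT7 KO mice 1, 2 and 3. All 3 knockout mice were well below the lowest WT mouse, and SIRT7 KO mouse 3 was the lowest of them. The mean was 33.3 ± 4.25 (SD, n = 3) in WT and 9.93 ± 3.79 (SD, n = 3) in SIRT7 KO mice, and the log2 fold change was -1.82 (SE 0.27). It was -2.46 with the mean of logged values.

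In cluster 2 Sult2a1 was at 17.1, 18.7 and 5.29 CP10K in WT mice and at 1.75, 1.84 and 2.64 in SIRT7 KO mice. WT mouse 3 lay closer to the knockout mice than to the other two WT mice, without overlapping them, but after subtraction of the level in other cells it was at 1.87 CP10K, below the 2.19 of SIRT7 KO mouse 3. The log2 fold change was -2.52 (SE 0.43). Within each of the 6 mice the level was higher in cluster 1 than in cluster 2, by a median of 1.80 on the log2 scale.

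Sult2a8 encodes a member whose sequence stands apart from Sult2a1 and which has been linked to bile acid sulfation in mouse liver. In cluster 1 it was at 6.17, 11.0 and 12.6 CP10K in WT mice and at 3.21, 2.47 and 1.56 in SIRT7 KO mice. In cluster 2 it was at 3.52, 7.80 and 5.94 CP10K in WT and at 1.06, 1.35 and 1.15 in SIRT7 KO mice. The groups did not overlap in either cluster. The knockout mice were closer to each other in CP10K than the WT mice were, but in cluster 1 the spread was about the same in proportion. The log2 fold change was -2.01 (SE 0.31) in cluster 1 and -2.16 (SE 0.38) in cluster 2. Over all other cells together, Sult2a8 was at 1.54, 3.47 and 1.73 CP10K in WT and at 0.497, 0.101 and 0.188 in SIRT7 KO mice. These levels are included in those of the clusters as given here.

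Sult2a7 was the member with the fewest UMIs. In cluster 1 it was at 0.483, 1.76 and 1.59 CP10K in WT mice, from 31, 135 and 9 UMIs, and at 0.139, 0.0247 and 0.0252 in SIRT7 KO mice, from 9, 2 and 1 UMIs. Every knockout mouse lay below every WT mouse, but the 2 lowest values come from so few molecules that their order says nothing. The log2 fold change was -3.52 (SE 0.56), and it was -1.57 with a pseudocount of 0.5, so its size depends on the pseudocount. In cluster 2 the WT mice had 17, 26 and 2 Sult2a7 UMIs and the SIRT7 KO mice 1, 0 and 0. The 0 in SIRT7 KO mouse 3 allows up to 0.0268 CP10K, and that in SIRT7 KO mouse 2, with fewer total UMIs, up to 0.502. The latter is more than the 0.208 and 0.167 of WT mice 1 and 3, so a separation of all mice was not detectable there at this depth.

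Sult2a6 was at 3.75, 3.22 and 2.23 CP10K in cluster 1 of WT mice and at 2.01, 2.21 and 1.87 in SIRT7 KO mice. WT mouse 3 and SIRT7 KO mouse 2 were almost level, so the separation was narrow. The log2 fold change was -0.55 (SE 0.28). In cluster 2 the WT values of 1.95, 1.57 and 0.283 CP10K overlapped the SIRT7 KO values of 0.176, 0.332 and 0.388, because WT mouse 3 was low, and the log2 fold change was -1.61 (SE 0.59). Without WT mouse 3 it was -2.43, and without the other single mice it lay between -1.81 and -1.13.

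Sult2a2 did not follow the others in cluster 1. It was at 1.22, 1.92 and 0.821 CP10K in WT mice and at 1.23, 1.80 and 0.823 in SIRT7 KO mice. The groups overlapped completely, and the log2 fold change was -0.02 (SE 0.38), a value that fell on either side of 0 when single mice were left out, from -0.31 to 0.28. In cluster 2 it was at 1.40, 1.28 and 0.246 CP10K in WT and at 0.352, 0 and 0.379 in SIRT7 KO mice, where the 0 in SIRT7 KO mouse 2 allows up to 0.502. WT mouse 3 again lay among the knockout mice, and the log2 fold change was -2.02 (SE 0.87). Its size rests on single mice, at -0.998 without SIRT7 KO mouse 2 and -2.76 without WT mouse 3.

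**Figure D2:**
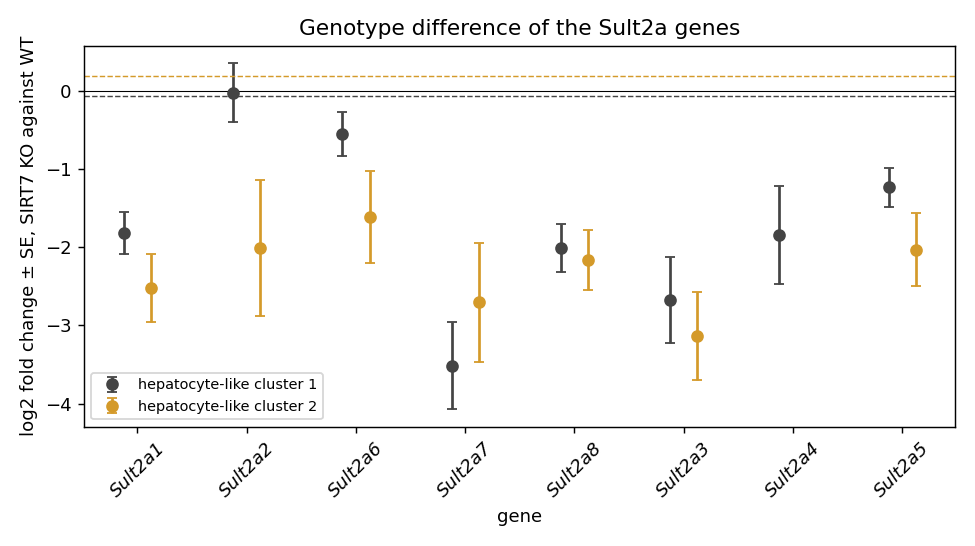
Log2 fold change, SIRT7 KO against WT, of each Sult2a gene in hepatocyte-like cluster 1 (dark) and cluster 2 (gold), with bars of 1 SE of the fit over 6 mice and dashed lines at the median of all genes tested in each cluster. In cluster 1 Sult2a2 is at -0.02 and Sult2a6 at -0.55, and the other genes lie between -1.24 and -3.52.

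The median log2 fold change of the 5 members was -1.82 in cluster 1, beside -0.07 over all genes tested there. In cluster 2 it was -2.16 beside 0.19, and in all hepatocyte-like cells -1.99 beside 0.16. In cluster 1, 4 of the 5 members had every SIRT7 KO mouse below every WT mouse, as had 8.15% of all genes tested. Sult2a6 is among the 4 only by the mean over cells. As summed UMIs it was at 3.89, 3.07 and 1.66 CP10K in WT and at 1.82, 2.03 and 1.83 in SIRT7 KO mice, with WT mouse 3, at 13 UMIs, below all 3 SIRT7 KO mice. In cluster 2 it was 3 of 5 by the measured values, Sult2a7 among them, beside 4.36% of all genes, and in all hepatocyte-like cells 3 of 5 beside 3.12%. Since the members were chosen on this contrast, these counts describe them and nothing is read from them.

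Shares of the Sult2a UMIs are compared between mice, not between genes, since shared reads may be left uncounted to a different extent in each gene. In cluster 1, Sult2a1 gave 54.5%, 55.3% and 55.3% of the UMIs of the 8 genes in WT mice and 52.0%, 54.0% and 39.4% in SIRT7 KO mice. Its share was similar in 5 of the mice and lower in SIRT7 KO mouse 3. Sult2a2 made up 2.24%, 2.63% and 1.80% in WT and 4.95%, 7.95% and 5.32% in SIRT7 KO mice, so its share was higher in the knockout mice although its level was not. The sum of the 8 genes was 57.0, 69.9 and 57.4 CP10K in WT and 23.6, 22.9 and 13.5 in SIRT7 KO mice.

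Abundant hepatocyte transcripts were compared in the same cells, and Alb, Fabp1 and Apoa2 were named after their values were seen. The 8 hepatocyte markers summed to 431, 525 and 248 CP10K in cluster 1 of WT and to 257, 152 and 286 in that of SIRT7 KO mice, which overlapped. Apoa2, which encodes an apolipoprotein of high-density lipoprotein, was at 220, 217 and 168 CP10K in cluster 1 of WT and at 165, 114 and 115 in that of SIRT7 KO mice, and in cluster 2 it was at 164, 116 and 69.2 and at 54.1, 34.7 and 62.3. Like Sult2a1, it was lower in every SIRT7 KO mouse in both clusters. In cluster 1, Alb, which encodes albumin, was at 137, 211 and 60.2 CP10K in WT and at 48.8, 22.4 and 105 in SIRT7 KO mice, and these values overlapped (adjusted p = 0.665, limma). Fabp1, which encodes the liver fatty acid binding protein, was at 202, 175 and 165 CP10K in WT and at 431, 377 and 390 in SIRT7 KO mice, a rise with a log2 fold change of 1.15 (SE 0.14, adjusted p = 0.00042, limma). In cluster 2 Fabp1 was at 90.5, 73.2 and 27.9 CP10K in WT and at 44.7, 51.7 and 37.9 in SIRT7 KO mice, which overlapped (adjusted p = 0.797). CP10K is a share of the RNA of a cell, so a rise of abundant transcripts lowers all others. With the 20 most abundant genes left out of the scaling, the median of the members stayed on the same side in both clusters.

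Markers of other cell types were present in the hepatocyte-like clusters at low levels. In cluster 2, the 10 macrophage markers summed to 0.340, 0.286 and 1.87 CP10K in WT and to 6.28, 1.48 and 0.957 in SIRT7 KO mice, with Cd5l the most abundant and none at 0 in all mice. All 10 had a higher mean in SIRT7 KO mice, though the sums overlapped. The 7 neutrophil markers, led by S100a9, summed to 0.0409, 0.158 and 0.0313 CP10K in WT and to 13.1, 0.394 and 0.262 in SIRT7 KO mice, and none was at 0 in all mice. All 7 had a higher mean in SIRT7 KO mice, and the sums did not overlap. The 10 T and NK markers, led by Ccl5 and none at 0 in all mice, summed to 0.159, 0.272 and 2.70 CP10K in WT and to 5.41, 7.95 and 0.542 in SIRT7 KO mice, and 9 of them had a higher mean in SIRT7 KO mice. In cluster 1, SIRT7 KO mouse 1 was again the highest, with 6.21 CP10K of macrophage and 4.78 of neutrophil markers. The part of these cells in the Sult2a differences was not tested. Hemoglobin transcripts, at 103 CP10K in cluster 1 of WT mouse 1, were at 5.78 or less there in the other mice.

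Sult2a1 UMIs were found in every class of cells. RNA set free from broken hepatocytes can enter all droplets, and transcripts of 1 such source would keep 1 ratio in every class. Over all other cells together, Sult2a1 was at 8.59, 12.3 and 3.42 CP10K in WT mice and at 1.40, 0.579 and 0.440 in SIRT7 KO mice. Per 100 Fabp1 UMIs, these cells held 13.6, 20.7 and 17.6 Sult2a1 UMIs in WT and 3.28, 3.70 and 3.41 in SIRT7 KO mice. All hepatocyte-like cells held 17.0, 23.1 and 18.2 in WT and 2.85, 3.22 and 3.05 in SIRT7 KO mice. These 2 transcripts stood in nearly the same ratio in hepatocyte-like and other cells of a mouse. The lower ratio in SIRT7 KO mice includes the rise of Fabp1 itself in cluster 1, so it is no measure of Sult2a1 alone. The totals hide a spread in SIRT7 KO mouse 3, where the ratio was 1.12 in cluster 1 and 6.09 in cluster 2. With Alb in place of Fabp1 the ratios were alike in WT mice 1 and 3 and unlike in the other 4 mice. Per 100 Alb UMIs, other cells held 21.2, 45.7 and 22.7 Sult2a1 UMIs in WT and 8.97, 17.5 and 1.08 in SIRT7 KO mice, and hepatocyte-like cells held 19.1, 14.0 and 23.5 and 15.2, 50 and 3.39. The source of the Sult2a1 UMIs in nonparenchymal cells was not tested, and their level is used below as the background to compare with.

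**Figure D3:**
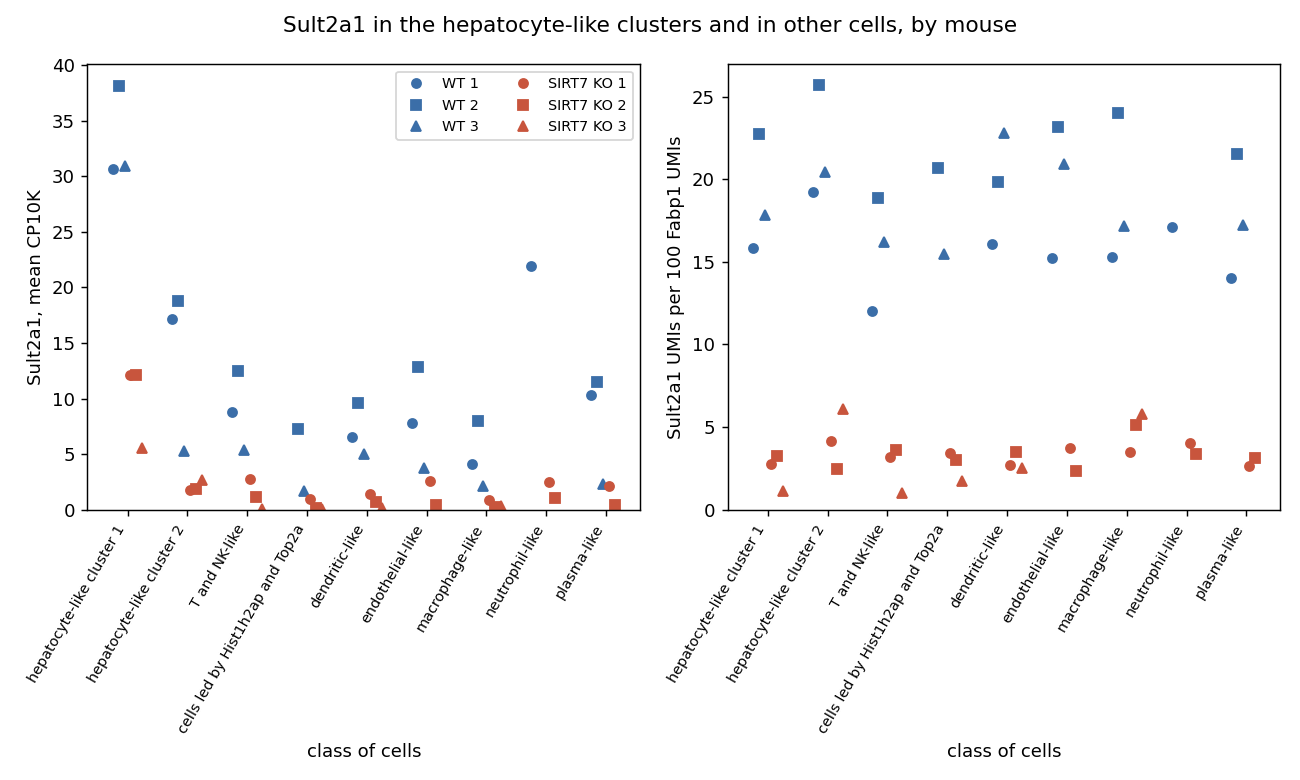
Sult2a1 by mouse in the hepatocyte-like clusters and in the classes of other cells with at least 20 cells of a mouse, as mean CP10K (left) and as Sult2a1 UMIs per 100 Fabp1 UMIs (right), with WT in blue and SIRT7 KO in red. On the left the hepatocyte-like cluster 1 is the highest class of each mouse, and on the right the SIRT7 KO values reach 6.09 and lie below the WT values, a ratio whose denominator also rose in cluster 1 of SIRT7 KO mice.

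Against this background, cluster 1 stood out more than cluster 2. Sult2a1 in cluster 1 was 3.57, 3.10 and 9.07 times its level in the other cells of WT mice and 8.65, 20.9 and 12.6 times that of SIRT7 KO mice. After subtraction of the level in other cells, 22.1, 25.9 and 27.5 CP10K remained in WT and 10.7, 11.5 and 5.11 in SIRT7 KO mice, again without overlap. The level in other cells differed by class. It was 22.0 CP10K in the 24 neutrophil-like cells of WT mouse 1 and 36.2 in the 10 of WT mouse 2, where cluster 1 was at 38.2. The separation in cluster 1 therefore depends on the class subtracted. In cluster 2, the level of Sult2a1 in WT mouse 3 and SIRT7 KO mouse 1 did not exceed that in their T and NK-like cells, which was 5.40 and 2.79 CP10K. In WT mouse 1 the cluster 2 level, 17.1 CP10K, did not exceed that in its neutrophil-like cells. After the same subtraction, 8.55, 6.44 and 1.87 CP10K remained in cluster 2 of WT and 0.348, 1.26 and 2.19 in that of SIRT7 KO mice. SIRT7 KO mouse 3 then lay above WT mouse 3, so the separation of Sult2a1 in cluster 2 was lost.

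The share of cells with at least 1 Sult2a1 UMI gave the same picture. In cluster 1 it was 95.9%, 97.6% and 81.5% in WT and 57.4%, 59.0% and 42.2% in SIRT7 KO mice, at median depths of 1316, 1243 and 1020 UMIs and of 1137, 1286 and 1961 UMIs. In T and NK-like cells, taken as the class to compare with, it was 90.5%, 93.2% and 45.4% in WT and 22.7%, 11.1% and 6.67% in SIRT7 KO mice, at median depths of 2688, 2582 and 1044 UMIs and of 1103, 1471 and 3197 UMIs. After each cell was thinned to 1000 UMIs and shallower cells were left out, cluster 1 had 94.8%, 95.8% and 80.8% in WT and 53.4%, 55.4% and 31.4% in SIRT7 KO mice. T and NK-like cells then had 58.3%, 68.9% and 36.0% in WT and 20.6%, 9.18% and 0.556% in SIRT7 KO mice. The cells left out numbered 100, 102 and 25 in cluster 1 of WT and 181, 66 and 14 in that of SIRT7 KO mice, and 0, 3 and 92 and 242, 84 and 0 of the T and NK-like cells. Every mouse had a higher share in cluster 1 than in T and NK-like cells, whereas cluster 2 of SIRT7 KO mouse 1, with 21.3%, was below its T and NK-like cells.

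Whether the members differ along the lobule was asked with a zone score that holds no Sult2a gene. The score of a cell is its mean over 13 pericentral landmarks minus that over 14 periportal landmarks, and 2937 cells were divided within each mouse into 3 terciles of equal size. None of the 5 members passed the test between the pericentral and the periportal tercile, and 27 of 9843 genes (0.274%) did. The landmarks set the terciles, so any landmark among these genes differs by construction.

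Sult2a1 was at 23.9, 37.5 and 27.8 CP10K in the periportal tercile of WT mice and at 24.8, 32.2 and 8.32 in their pericentral tercile. In SIRT7 KO mice it was at 5.71, 13.4 and 4.72 and at 6.54, 4.54 and 1.76. It was lower in the pericentral tercile of 4 of 6 mice, and the log2 difference, pericentral minus periportal, was -0.78 (SE 0.28, adjusted p = 0.66, limma over all genes). Sult2a8 was higher in the pericentral tercile of 5 of 6 mice, all but WT mouse 3, with a log2 difference of 0.43 (SE 0.24, adjusted p = 0.732). The differences of Sult2a2, Sult2a6 and Sult2a7 were -0.22, -0.03 and 0.43, with adjusted p from 0.823 to 0.992. Cells of cluster 1 made up 71.2% of the pericentral and 42.3% of the periportal tercile, so the terciles also differ in cluster, and 511 cells lay within 0.1 SD of a limit between terciles.

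**Figure D4:**
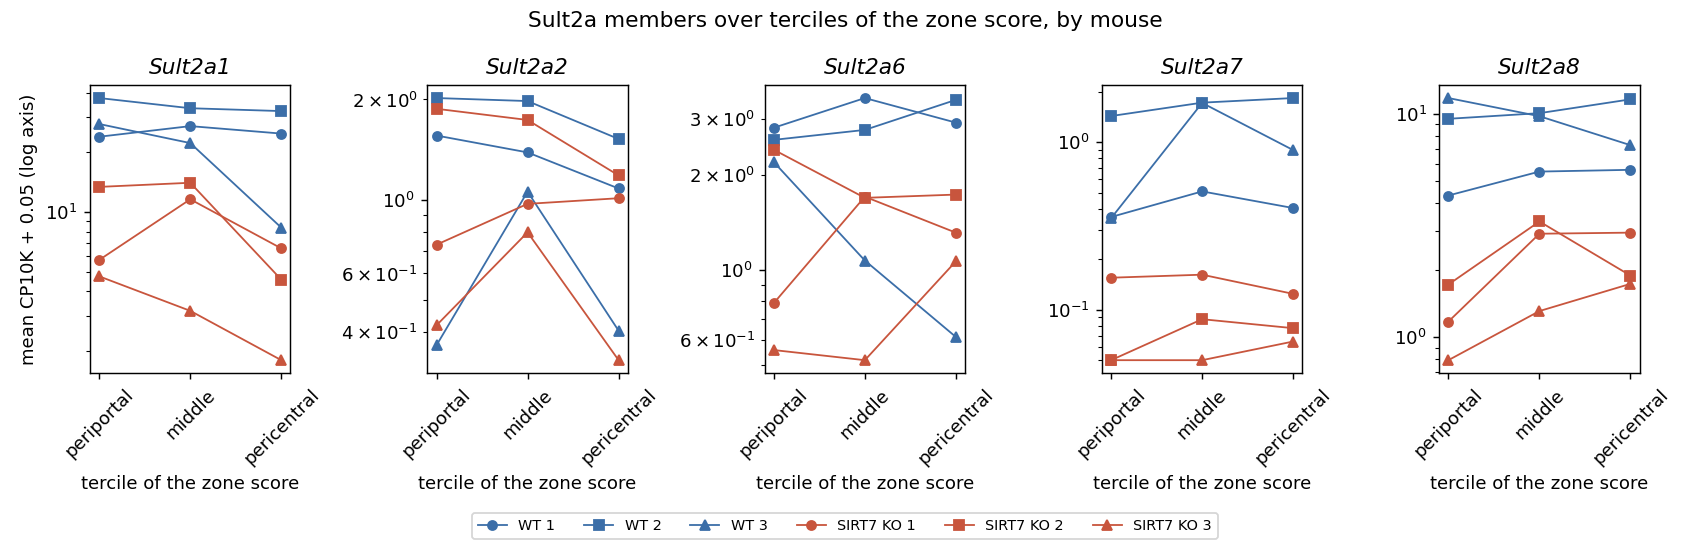
Mean CP10K + 0.05 (log axis) of each member in the periportal, middle and pericentral tercile of the zone score, with a line for each mouse, WT in blue and SIRT7 KO in red. Lines of a member do not slope the same way in all mice, and for Sult2a1 and Sult2a8 the WT lines lie above the SIRT7 KO lines at every point.

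When the terciles were taken within 1 cluster, a choice made after the data were seen, 1 member passed in each. Within cluster 1, in the 5 mice with enough cells, Sult2a1 was at 31.8 and 43.4 CP10K in the periportal tercile of WT mice 1 and 2 and at 29.4 and 35.0 in their pericentral tercile. In SIRT7 KO mice 1, 2 and 3 it was at 18.3, 17.3 and 8.44 and at 6.43, 4.41 and 1.87. It was lower in the pericentral tercile of 5 of 5 mice, by little in the WT and by much in the SIRT7 KO mice. The log2 difference was -1.04 (SE 0.11, adjusted p = 8.09e-05, limma), where 21 of 8433 genes (0.249%) passed. By mouse the log2 difference was -0.112 and -0.310 in WT mice 1 and 2, and -1.50, -1.96 and -2.14 in SIRT7 KO mice 1, 2 and 3. The fit held a genotype term, so its SE and p measure the spread within a genotype, not that over all 5 mice. The estimate of -1.04 weighs both genotypes equally and describes neither, and the difference between them was not tested.

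Within cluster 2, in 4 mice, Sult2a8 was at 2.80 and 7.24 CP10K in the periportal tercile of WT mice 1 and 2 and at 4.65 and 8.73 in their pericentral tercile. In SIRT7 KO mice 1 and 3 it was at 0.546 and 0.748 and at 1.70 and 1.70. It was higher in the pericentral tercile of all 4 mice, with a log2 difference of 0.92 (SE 0.19, adjusted p = 0.00326, limma). Here too the SE and p leave out the difference between genotypes, and 158 of 10084 genes (1.57%) passed. In cluster 1 the difference of Sult2a8 was 0.14 (adjusted p = 0.982), and in cluster 2 that of Sult2a1 was -0.63 (adjusted p = 0.834).

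The other 3 Sult2a genes were lower in SIRT7 KO mice too, and 1 of them passed the test in each cluster. Sult2a5 fell in cluster 1, where 36 of 8635 genes (0.417%) passed, 12 of them higher and 24 lower in SIRT7 KO mice. Sult2a3 fell in cluster 2, where 22 of 10265 genes (0.214%) passed, 7 higher and 15 lower. In all hepatocyte-like cells 9 of 9857 genes (0.0913%) passed and none of these 3 was among them.

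Sult2a5 was at 10.3, 8.96 and 6.86 CP10K in cluster 1 of WT and at 4.24, 3.23 and 3.45 in that of SIRT7 KO mice. The groups did not overlap, and the log2 fold change was -1.24 (SE 0.25, adjusted p = 0.0284, limma). Without WT mouse 1, WT mouse 2 or SIRT7 KO mouse 2 the adjusted p was 0.0973, 0.144 and 0.192. It passed in 12 of 19 settings, the one reported included, and the highest adjusted p was 0.381, with the replicate block. Sult2a3 in cluster 2 was at 2.52, 2.53 and 0.486 CP10K in WT and at 0.0823, 0.148 and 0.149 in SIRT7 KO mice, with WT mouse 3 between the rest of both groups. Its log2 fold change was -3.14 (SE 0.56, adjusted p = 0.0133), and the adjusted p was 0.171, 0.111 and 0.0622 without WT mouse 1, WT mouse 2 or SIRT7 KO mouse 2. It also passed in 12 of 19 settings, with 0.171 the highest adjusted p. Sult2a4 was near the limit of counting, with 33 UMIs in cluster 1 of WT and 12 in that of SIRT7 KO mice, and did not pass in cluster 1 (adjusted p = 0.296).

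The genes that supply PAPS and the other cytosolic sulfotransferases did not pass in the main fits of either cluster or of all hepatocyte-like cells. Papss2, which encodes a PAPS synthase, was at 3.09 CP10K in cluster 1 of WT and 1.82 in that of SIRT7 KO mice, with a log2 fold change of -0.72 (SE 0.35, adjusted p = 0.522). Over the 6 genes for PAPS supply tested in cluster 1 the median log2 fold change was -0.48, and it was -0.07 over the 7 tested in cluster 2. Of the other cytosolic sulfotransferases 6 were tested, and all 6 had values below 0 in both clusters. Their median log2 fold change was -0.29 in cluster 1, beside -0.07 over all genes tested. In cluster 2 it was -1.56 beside 0.19, so low values there were not particular to the Sult2a genes. Sult3a1, another sulfotransferase that is more active in female liver, was at 31.8 CP10K in cluster 1 of WT and at 28.0 in that of SIRT7 KO mice, and its log2 fold change was -0.13 (SE 0.25, adjusted p = 0.902). In cluster 2 it was -2.12 (SE 0.56, adjusted p = 0.211).

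None of the nuclear receptors and factors, of the targets of CAR and PXR, of the genes of bile acid synthesis and transport, or of the male-biased liver genes passed in any of the 3 fits. Nr1i2, which encodes PXR, had a log2 fold change of 0.20 in cluster 1 and 1.41 in cluster 2 (adjusted p = 0.914 and 0.284). Nr1i3, which encodes CAR, had 0.04 and -0.74 (adjusted p = 0.974 and 0.531). In cluster 1 the median log2 fold changes of these lists were 0.20 for 11 nuclear receptors and factors, -0.68 for 9 CAR and PXR targets, -0.90 for 16 bile acid genes and -0.73 for 10 male-biased genes, beside -0.07 over all genes tested. In cluster 2 they were 0.31 for 12 nuclear receptors and factors, -0.28 for 9 CAR and PXR targets, -0.30 for 16 bile acid genes and -0.26 for 11 male-biased genes, beside 0.19.

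**Figure D5:**
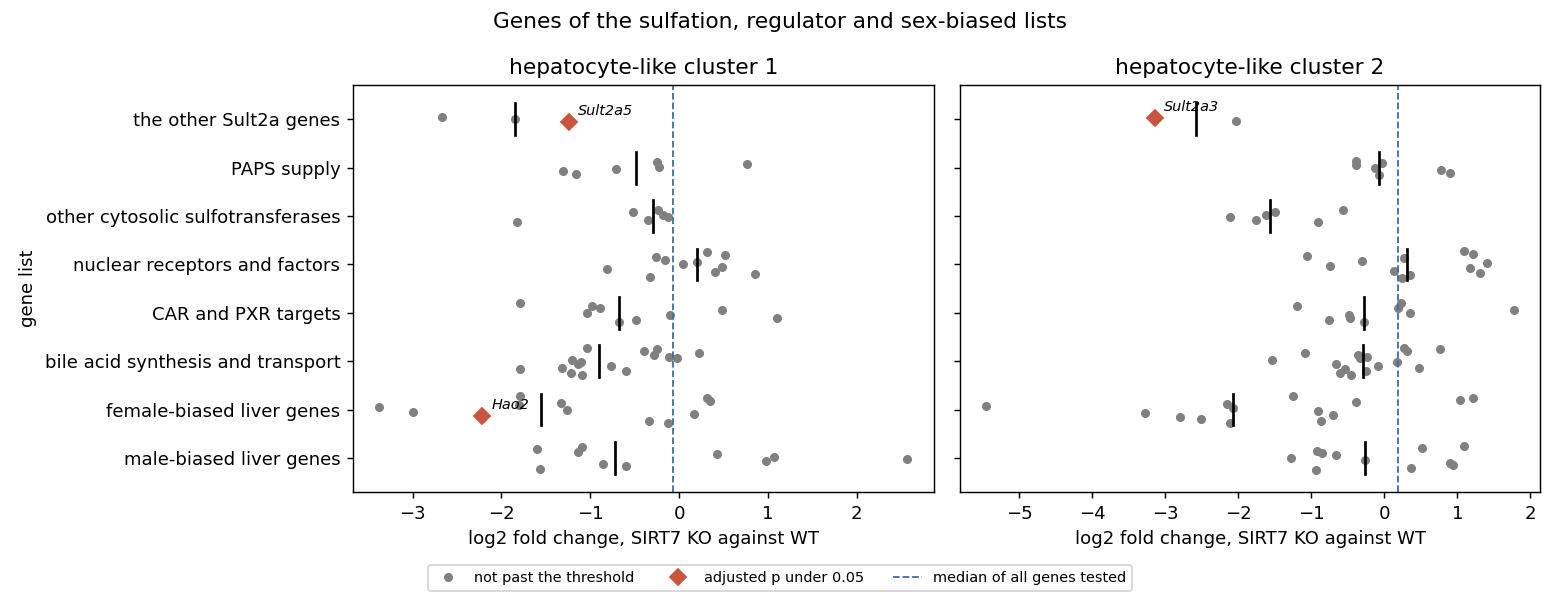
Log2 fold change, SIRT7 KO against WT, of the tested genes of the 8 lists, 1 of them not shown, in hepatocyte-like cluster 1 (left) and cluster 2 (right), with a black bar at the median of a list, a dashed line at the median of all genes tested and red diamonds for genes with an adjusted p under 0.05. Sult2a5 and Hao2 pass in cluster 1, and Sult2a3 passes in cluster 2.

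Among the genes known to be more active in female liver, Hao2 fell in cluster 1. Hao2, which encodes a peroxisomal hydroxyacid oxidase, was at 1.79, 1.30 and 1.18 CP10K in cluster 1 of WT and at 0.104, 0.293 and 0.530 in that of SIRT7 KO mice. The groups did not overlap, and the log2 fold change was -2.21 (SE 0.46, adjusted p = 0.0369, limma). It passed in 9 of the 19 settings tried in cluster 1, and leaving out any single mouse but SIRT7 KO mouse 3 raised the adjusted p to between 0.0798 and 0.148. Of the 14 female-biased genes tested in cluster 1, 11 had values below 0, and the median was -1.56 beside -0.07 over all genes tested. Of the 15 tested in cluster 2, 13 were below 0, and the median was -2.08 beside 0.19.

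Genes whose levels followed those of the members most closely were found over the 12 points of mouse by cluster, among 3355 genes. For Sult2a1 these were Serpina1c, Serpina1a, Apoa2, Apoc4 and Cebpa, with Pearson's r from 0.925 to 0.936. For Sult2a8 they were Cyp2c54, Cyp2c50, Hmgcs1, Aldh6a1 and Idi1, with r from 0.836 to 0.902. The 12 points are pairs of clusters from 6 libraries and differ in genotype, so these values describe likeness and are not a test. Between members, r was 0.953 for Sult2a7 and Sult2a8 and 0.495 for Sult2a2 and Sult2a8.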

How the data were processed

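Per the study's methods, the authors aligned 10x Genomics 3′ reads with Cell Ranger 6.0.0 to the mm10 mouse transcriptome. They removed cells with fewer than 500 genes or over 5% mitochondrial UMIs, and deposited natural log values, ln(CP10K + 1), of 11610 cells and 16623 genes. How reads of near-identical genes were treated is not given in the sources used here. UMIs were recovered by dividing the unlogged values of a cell by its lowest one, and each of the 12961041 nonzero values came out whole to within 0.02.

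Cells were clustered with scanpy 1.11.5 and leidenalg 0.10.2 (994 variable genes after 6 Sult2a genes were left out, 50 principal components, 3 neighbours per mouse, resolution 0.35). Scrublet marked 46 cells (0.396%), so doublets were in effect not removed. Log2(mean CP10K + 0.05) per mouse was compared with limma 3.58.1 (R 4.3.3, trend and robust, two-sided, Benjamini-Hochberg over all genes, threshold 0.05) for genes whose mean over mice reached 0.05 CP10K and mice with at least 20 cells. The log2 scale with this pseudocount understates changes of low genes. A count model on the recovered UMIs was not run, and summed UMIs were an alternative. Terciles of the zone score used cells with at least 5 landmark UMIs. The zone fits compared terciles within each mouse, with genotype as a centred covariate, so their SE measures the spread within a genotype. limma was checked on simulated data. Where nothing else is said, replicates are single mice.

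The members, the gene lists and the tests were chosen with earlier results of these data known. Named are the members, the other Sult2a genes, genes of the lists past the threshold, Xist, and the 5 genes most like Sult2a1 and Sult2a8. Alb, Fabp1, Malat1, Papss2, Sult3a1, Nr1i2 and Nr1i3 were named for their known roles after their values were seen. Listed genes without a column were not analysed here. The values of 1 listed gene are not reported here, although it is in the counts and medians of its list. Alternatives were the pseudocount, the filter, the averaging, single mice left out, the replicate block, the clustering, doublets, hemoglobin, the zone score and, added after the data were seen, the scaling, cells with a Malat1 UMI, equal weights of the clusters and terciles within a cluster.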

Additional observations from a re-analysis of the deposited data

How the results depend on the processing

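The log2 fold changes of Sult2a1, Sult2a6, Sult2a7 and Sult2a8 stayed below 0 under every alternative run, in both clusters and in all hepatocyte-like cells, and that of Sult2a2 changed sign under 5 of 18 in cluster 1 and under 2 of 19 in all hepatocyte-like cells. As summed UMIs, Sult2a6 no longer separated the groups in cluster 1. The median of the members moved to -0.39 in all hepatocyte-like cells, -0.43 in cluster 1 and -0.51 in cluster 2 with the mean of logged values, which moved Sult2a1 in cluster 1 to -2.46, and to -0.999 in cluster 2 with a pseudocount of 0.5. Without single mice it ranged from -2.21 to -1.49, from -2.01 to -1.45 and from -2.76 to -1.91. With a pseudocount of 0.5 the fold change of Sult2a7 was -1.36, -1.57 and -0.79 in all hepatocyte-like cells, cluster 1 and cluster 2. Depth limits Sult2a7 and Sult2a4, and the few hepatocyte-like cells of WT mouse 3 limit every comparison.

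Counts of genes past the threshold depended on the settings, and the cause was not tested. In all hepatocyte-like cells the 9 genes became 3 with a pseudocount of 0.5, with no filter and with summed UMIs, 0 with logged values (210 at an unadjusted p under 0.05, limma), 18 in cells with a Malat1 UMI, 41 with equal weights, and 3 (without WT mouse 3) to 18 (without SIRT7 KO mouse 2) without single mice. In cluster 1 the 36 became 79 with summed UMIs, 8 with logged values, 130 in cells with a Malat1 UMI (5 mice), and 20 (without WT mouse 2 or SIRT7 KO mouse 2) to 136 (without SIRT7 KO mouse 3). In cluster 2 the 22 became 42 with a pseudocount of 0.5, 9 with a filter of 0.2 CP10K, 11 with no filter, 13 with summed UMIs, and 7 (without WT mouse 3) to 120 (without SIRT7 KO mouse 3). Of the listed genes outside the members, in all hepatocyte-like cells 2 became 1 with a pseudocount of 0.5, no filter or summed UMIs, 0 with logged values, 5 with equal weights, and 1 to 3 without single mice. In cluster 1, 3 became 1 with a filter of 0.2 CP10K or logged values, 12 in cells with a Malat1 UMI, and 1 to 9 without single mice. In cluster 2, 2 became 7 with a pseudocount of 0.5, 1 with a filter of 0.2 CP10K, no filter or summed UMIs, and 0 (without WT mouse 1) to 14 (without SIRT7 KO mouse 3).

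Between zones the 27 genes became 158 within cluster 2, and 13 (without SIRT7 KO mouse 1 or 3) to 120 (without WT mouse 3) without single mice. The count of members past the threshold was 1 within cluster 1 and 1 within cluster 2, and 0 under the other alternatives. Sult2a6 turned from -0.03 to 0.0027 with a score without Cyp2c and Cyp2a landmarks and ranged from -0.25 to 0.32 without single mice.

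The replicate block on the mouse number gave 4 genes in all hepatocyte-like cells, 2 in cluster 1 and 41 in cluster 2, with 1 listed gene in cluster 1 and 5 in cluster 2. Mice with the same number did not deviate together, with correlations from -0.166 to 0.136, so the numbers are not taken to pair the mice.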
